A study of Mus musculus with 8 samples.

Results

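The 10 genes described here encode feedback inhibitors of the ERK pathway: the dual-specificity phosphatases Dusp4, Dusp5, Dusp6, Dusp7 and Dusp9, the Sprouty proteins Spry1, Spry2 and Spry4, and the Spred proteins Spred1 and Spred2. They were chosen by name, each as the row of the deposited expression table with that gene symbol, and all 10 were found among its 23309 genes. The table covers 8 RNA libraries of N134, a line of mouse pancreatic beta cell tumor cells of strain C57BL/6 that the series also calls a pancreatic neuroendocrine tumor line. In 4 libraries, numbered 5 to 8, the cells overexpressed GFP-miR-431, a microRNA together with green fluorescent protein. In the other 4, numbered 1 to 4, they overexpressed GFP-miR-LacZ, the control construct. All 8 came from actively growing cultures in medium with serum, and all carry a GFP construct. The data come from a single cell line, and the sources used here do not say whether the cells of a group were a pool or a clone, or whether its libraries are separate cultures. The p-values therefore measure only how these libraries scatter, which may be technical.

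In mm9 coordinates as the table gives them, Dusp4 lies at chr8:35870663-35882948, Dusp5 at chr19:53603807-53615812, Dusp6 at chr10:98725864-98730123, Dusp7 at chr9:106270962-106278054 and Dusp9 at chrX:70884779-70888853. Spry1 lies at chr3:37538871-37543521, Spry2 at chr14:106291163-106296036 and Spry4 at chr18:38745918-38760922. Spred1 lies at chr2:116947185-117005072 and Spred2 at chr11:19824444-19922600. Each span covers the whole gene.

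Growth factor receptors activate Ras, which switches on the kinases Raf, MEK and ERK in turn. Active ERK induces its own inhibitors. The dual-specificity phosphatases remove phosphate from the threonine and the tyrosine of the ERK activation loop, Dusp4 and Dusp5 in the nucleus and Dusp6, Dusp7 and Dusp9 mainly in the cytoplasm. Sprouty proteins act between the receptor and Raf, and Spred proteins bring neurofibromin, a RasGAP that turns Ras off, to the membrane. Transcripts of Dusp6, Sprouty and Spred genes are widely used as a readout of ERK activity. Dab2ip, which the title of the series names as a target of miR-431, is another RasGAP.

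The overexpressed microRNA pairs with targets through its seed, bases 2 to 8 from the 5′ end. The labels do not name an arm of the hairpin, so both mature arms are given, from RefSeq (GRCm38.p6, chromosome 12, plus strand), with the seed in capitals.
mmu-miR-431-5p: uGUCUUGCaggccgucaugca
mmu-miR-431-3p: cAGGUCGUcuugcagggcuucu
Matches to these seeds were looked for in the longest 3′ UTR of each gene in GENCODE M21, which was available for all 10 genes. The match to the 5p seed reads GCAAGAC on the transcript, and 7.02% of 10750 tested genes with a 3′ UTR hold it. Among the 10 genes only Spry4 held it, once, at position 732 of a 3′ UTR of 3559 bases, and no gene of the 10 held the 8-base form GCAAGACA that adds an A opposite base 1. The match to the 3p seed, ACGACCT, was in none of the 10 and in 1.56% of tested genes. The same search in Dab2ip, with a 3′ UTR of 2767 bases, gave 0 matches to either seed. A match is a description of letters, and its absence says only that these letters are not in these UTRs.

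The values are FPKM, fragments scaled to transcript length and library size, so that levels of different genes can be set side by side. Sums were 521889 to 625005 FPKM per library, with 11603 to 11790 genes at 1 FPKM or more. No read counts were at hand, so the depth behind each value is unknown and no interval for counting error can be given. Mir431, the check of the labels, reached 18114, 32890, 37769 and 27269 FPKM in libraries 5 to 8 of the miR-431 group and was listed at 0 in libraries 1 to 4. Dab2ip averaged 54.5 ± 7.74 FPKM with miR-431 and 73.3 ± 7.76 FPKM with miR-LacZ (SD, n = 4 each). Its groups overlapped only through miR-431 7, at 64.2 FPKM, and miR-LacZ 4, at 62.7 FPKM. Libraries miR-431 5 and miR-LacZ 1 stand apart from the other 6 in their low values: below 0.1 FPKM, the ratio of values in a pair of libraries was the same within 0.02 (log2) for 18.5% to 23.8% of genes in pairs among the other 6, but for 1.78% to 2.41% in pairs of 5 or 1 with those 6 and 8.79% in the pair of 5 and 1. Values without them are therefore also given for Dusp4, Dusp6, Dusp7, Dusp9, Spry1, Spry4 and Spred1, and for other calls lost without them.

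Dusp4 and Dusp6 were higher in miR-431 cells, Spred1 was lower, and Dusp5, the most abundant of the 10, did not pass the test. Fold changes were taken between values of log2(FPKM + 1), a scale that shrinks the change of low genes. They were tested with limma over the 11807 genes that reached 1 FPKM in 4 or more of the 8 libraries. Of the 10 genes, 7 passed that filter. At a Benjamini-Hochberg adjusted p below 0.05, 2 of the 7 rose, where 15.4% of all tested genes did, and 1 fell, where 13.8% did. The other 4 did not pass the test. Dusp6 passed the filter only through the miR-431 libraries, so these shares are not read as a property of the gene group. The median log2 fold change was 0.25 over the 7 and −0.01 over all tested genes.

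**Figure D1:**
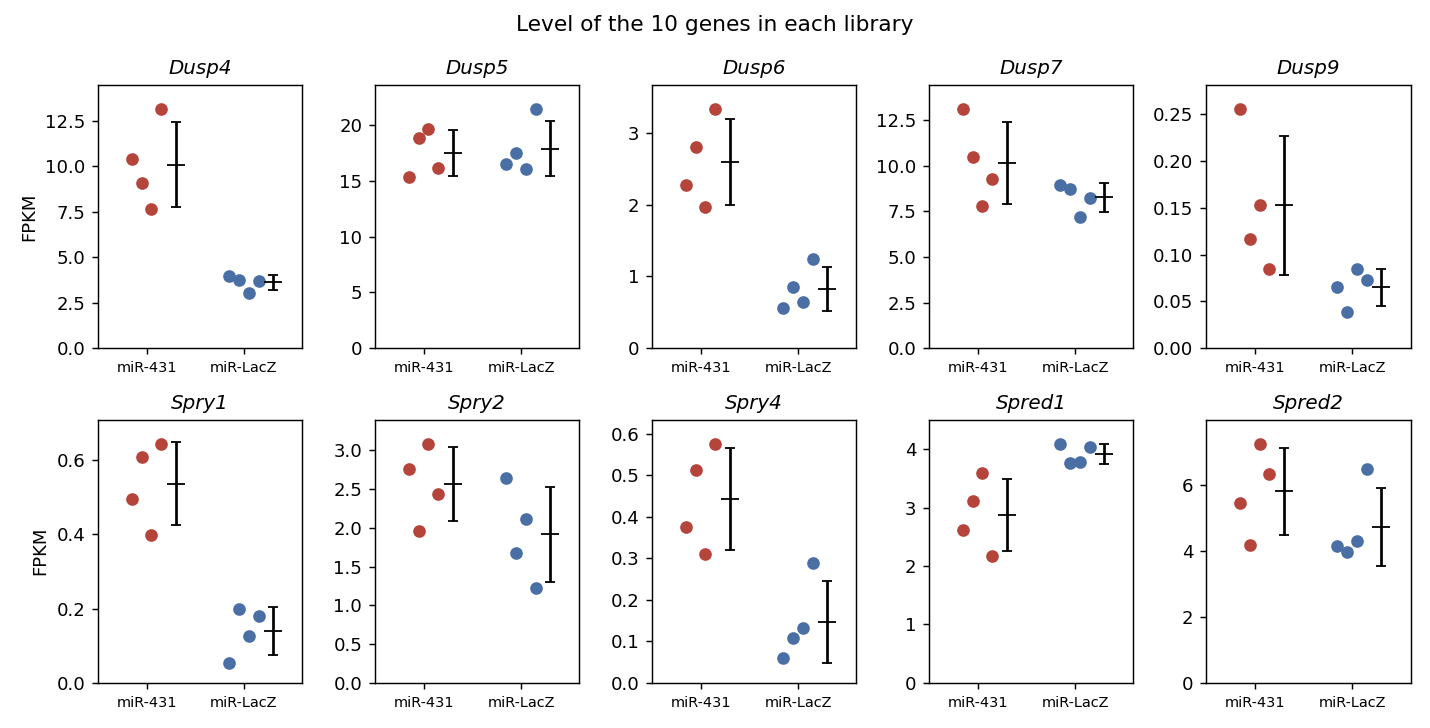
FPKM of the 10 genes in each of the 4 miR-431 (red) and 4 miR-LacZ (blue) libraries, one panel per gene with its own linear axis from 0; the bar beside each group is the mean ± SD. The groups of Dusp4, Dusp6, Dusp9, Spry1 and Spry4 do not overlap with miR-431 higher, Spred1 does not overlap with miR-431 lower, and the other 4 overlap.

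Dusp4, a nuclear phosphatase of ERK and also of the stress kinases, had 10.4, 9.09, 7.68 and 13.2 FPKM with miR-431 (libraries 5 to 8), against 3.99, 3.77, 3.04 and 3.70 FPKM with miR-LacZ (libraries 1 to 4). Every miR-431 library lay above every miR-LacZ library, a separation that 16.0% of tested genes also showed in this direction. The means were 10.1 ± 2.34 FPKM with miR-431 and 3.62 ± 0.411 FPKM with miR-LacZ (SD, n = 4 each), a ratio of 2.78. On the log2(FPKM + 1) scale the fold change was 1.24 ± 0.145 (SE; limma adjusted p = 0.000263), and the levels gave p = 0.0286 by exact permutation, two-sided, the smallest value 4 against 4 libraries allow. Without libraries 5 and 1 it was 1.26 (limma adjusted p = 0.00422), and library 5 alone exceeded library 1 by 1.19, a value with no test. In bulk RNA such as this, more cells with a transcript and more transcript per cell cannot be told apart.

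Dusp6, a cytoplasmic phosphatase selective for ERK, stood lower than Dusp4. It had 2.28, 2.81, 1.98 and 3.34 FPKM with miR-431 (libraries 5 to 8), against 0.555, 0.848, 0.649 and 1.25 FPKM with miR-LacZ (libraries 1 to 4). The groups did not overlap, as in 16.0% of tested genes in this direction, and miR-LacZ 4 was the highest control. The means were 2.60 ± 0.6003 FPKM with miR-431 and 0.824 ± 0.307 FPKM with miR-LacZ (SD, n = 4 each), a ratio of 3.15. On the log2(FPKM + 1) scale the fold change was 0.98 ± 0.152 (SE; limma adjusted p = 0.00127; exact permutation p = 0.0286). Dusp6 passed the filter only through the miR-431 libraries, so its value in a fit without the filter is also given (limma adjusted p = 0.00394). Without libraries 5 and 1 the fold change was 0.95 (limma adjusted p = 0.0107), and library 5 exceeded library 1 by 1.08. On log2(FPKM + 0.1), where low levels are compressed less, the fold change was 1.58 for Dusp6 and 1.43 for Dusp4.

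**Figure D2:**
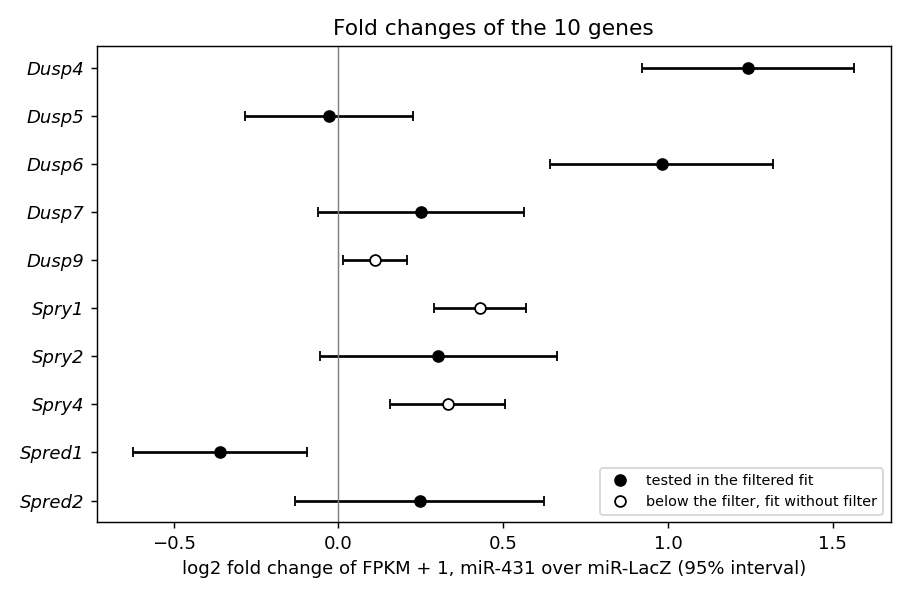
Log2 fold change of FPKM + 1 (horizontal axis), miR-431 over miR-LacZ, with its 95% interval, for the 10 genes from top to bottom. Filled points are the 7 genes tested in the filtered fit and open points the 3 below the filter, from a fit without it; Dusp4 at 1.24 and Dusp6 at 0.98 lie farthest to the right and Spred1 at −0.36 farthest to the left.

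Dusp5, the other nuclear phosphatase and one specific to ERK, was the most abundant of the 10 in both groups. It had 15.4, 18.8, 19.7 and 16.1 FPKM with miR-431 (libraries 5 to 8), against 16.6, 17.5, 16.0 and 21.5 FPKM with miR-LacZ (libraries 1 to 4). The groups overlapped, and the highest value was that of miR-LacZ 4. The log2 fold change was −0.03 with a 95% interval of −0.28 to 0.23 (limma adjusted p = 0.878). Dusp7, a cytoplasmic phosphatase, had 13.1, 10.5, 7.79 and 9.26 FPKM with miR-431 (libraries 5 to 8), against 8.93, 8.72, 7.18 and 8.26 FPKM with miR-LacZ (libraries 1 to 4). Its log2 fold change was 0.25 with an interval of −0.06 to 0.56 (limma adjusted p = 0.204), and libraries 5, 6 and 8 lay above all controls while 7 did not. With the median of its 31 tested chromosomal neighbours removed, the fold change of Dusp7 was 0.08. Without libraries 5 and 1 it was 0.16 (limma adjusted p = 0.371).

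Dusp9, an X-linked cytoplasmic phosphatase, was near the bottom of the range, at 0.256, 0.117, 0.153 and 0.0843 FPKM with miR-431 (libraries 5 to 8), against 0.0649, 0.0383, 0.0842 and 0.0725 FPKM with miR-LacZ (libraries 1 to 4). It was below 1 FPKM in all 8 libraries and was not tested in the filtered fit. Its groups did not overlap (exact permutation p = 0.0286), but miR-431 8 and miR-LacZ 3 lay very close, at 0.0843 and 0.0842 FPKM. With the depth unknown, the order of those values cannot be relied on. Groups also lay apart in this direction for 13.9% of 3095 genes below the filter but above 0 in every library. In a fit without the filter Dusp9 did not pass (log2 fold change 0.11, limma adjusted p = 0.0997). Without libraries 5 and 1 the difference of mean log2(FPKM + 1) of Dusp9 was 0.07.

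Promoters are shown because Dusp5 and Dusp6 are both known as ERK-induced genes and Dusp6 passed the test here while Dusp5 did not; the difference between them was not tested. RefSeq promoters (GRCm38.p6) were available for 7 of the 10 genes, Dusp5, Dusp6, Dusp7, Spry1, Spry2, Spred1 and Spred2, and the 250 bases before the start of the transcript were searched on both strands for 6 motifs picked after the expression values were seen. These were the AP-1 site TGANTCA, the cyclic AMP response element TGACGTCA, the ETS site CCGGAA, the TATA box TATAAA, the GC box GGGCGG and the CArG box of serum response factor. Among 32851 promoters, 6.75% hold the AP-1 site, 1.55% the cyclic AMP response element, 12.0% the ETS site, 12.4% the TATA box, 32.7% the GC box and 1.47% the CArG box. Dusp5 is shown as the abundant gene with no detected change, Dusp6 as called higher and Spred1 as called lower. Spry1 is shown as higher but below the filter of the main fit. The windows of Dusp5 (chr19:53528895-53529144), Dusp6 (chr10:99262981-99263230), Spry1 (chr3:37639697-37639946) and Spred1 (chr2:117120821-117121070), all on the plus strand, are printed 5′ to 3′ with motif matches in capitals.
Dusp5: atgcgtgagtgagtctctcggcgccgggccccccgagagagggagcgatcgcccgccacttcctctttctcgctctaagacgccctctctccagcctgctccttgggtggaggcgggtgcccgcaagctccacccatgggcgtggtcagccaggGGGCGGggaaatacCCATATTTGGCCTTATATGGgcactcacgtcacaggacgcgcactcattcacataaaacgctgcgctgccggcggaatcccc
Dusp6: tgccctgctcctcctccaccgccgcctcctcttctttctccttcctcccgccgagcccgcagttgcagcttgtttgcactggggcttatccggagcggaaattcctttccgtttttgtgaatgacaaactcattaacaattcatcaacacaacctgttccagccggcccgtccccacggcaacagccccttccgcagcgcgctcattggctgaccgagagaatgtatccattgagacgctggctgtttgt
Spry1: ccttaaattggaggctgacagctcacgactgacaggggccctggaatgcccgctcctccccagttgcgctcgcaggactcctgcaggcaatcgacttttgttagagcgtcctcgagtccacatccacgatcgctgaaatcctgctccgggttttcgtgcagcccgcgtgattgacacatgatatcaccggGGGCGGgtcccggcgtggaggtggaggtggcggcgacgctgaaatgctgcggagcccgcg
Spred1: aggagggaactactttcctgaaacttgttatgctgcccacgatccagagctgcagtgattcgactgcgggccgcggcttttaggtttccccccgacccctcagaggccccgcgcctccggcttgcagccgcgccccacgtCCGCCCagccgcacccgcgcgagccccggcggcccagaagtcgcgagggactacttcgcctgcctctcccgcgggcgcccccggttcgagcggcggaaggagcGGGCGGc
Dusp5 held 2 CArG boxes side by side, starting 82 and 72 bases before the transcript start, and a GC box at 96. No other of the 7 promoters held a CArG box. Spry1 held 1 GC box, at 60, and Spred1 held 2, at 110 and 7. Spred2, whose window is not printed, also held 1 GC box, at 40. The Dusp6 window held none of the 6 motifs, and the AP-1, cyclic AMP response, ETS and TATA motifs were in none of the 7 windows. No match overlapped another. These are letters in a short window and do not show what binds there.

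The Sprouty genes were low throughout, and the lower pair of the 3, Spry1 and Spry4, stood higher in miR-431 cells. Spry1, an inhibitor of signalling from growth factor receptors to Ras, had 0.494, 0.607, 0.399 and 0.644 FPKM with miR-431 (libraries 5 to 8), against 0.0530, 0.199, 0.126 and 0.181 FPKM with miR-LacZ (libraries 1 to 4). Spry4, which acts in the same part of the pathway, had 0.376, 0.512, 0.309 and 0.577 FPKM with miR-431, against 0.0600, 0.109, 0.132 and 0.289 FPKM with miR-LacZ in the same order. Neither gene's groups overlapped (exact permutation p = 0.0286 for each), although miR-431 7 and miR-LacZ 4 lay close together for Spry4. Both were below 1 FPKM in every library and so outside the filtered fit. Of 3095 genes below the filter but above 0 in every library, 13.9% showed groups apart in this direction.

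The means of Spry1 were 0.536 ± 0.111 FPKM with miR-431 and 0.140 ± 0.0655 FPKM with miR-LacZ, a ratio of 3.84. Those of Spry4 were 0.444 ± 0.123 FPKM with miR-431 and 0.148 ± 0.0991 FPKM with miR-LacZ, a ratio of 3.01 (SD, n = 4 each). In the fit without the filter both passed, Spry1 with a log2 fold change of 0.43 (SE 0.0605, limma adjusted p = 0.00244) and Spry4 with 0.33 (SE 0.0759, limma adjusted p = 0.0183). In that fit 13.0% of the 3095 low genes passed upward. Without libraries 5 and 1 the difference of mean log2(FPKM + 1) was 0.40 for Spry1 and 0.32 for Spry4, and library 5 minus library 1 gave 0.51 for Spry1 and 0.38 for Spry4. The depth is unknown, so how many fragments stand behind values this low cannot be said.

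Spry2, the Sprouty protein that binds the ubiquitin ligase Cbl, was the most abundant of the 3 but did not pass the test. It had 2.76, 1.96, 3.09 and 2.44 FPKM with miR-431 (libraries 5 to 8), against 2.65, 1.68, 2.12 and 1.22 FPKM with miR-LacZ (libraries 1 to 4). The groups overlapped, with miR-LacZ 1 above 2 of the miR-431 libraries. The log2 fold change was 0.30 with an interval of −0.06 to 0.66 (limma adjusted p = 0.184). The 3 Sprouty genes summed to 3.08 to 3.80 FPKM with miR-431 and 1.69 to 2.76 FPKM with miR-LacZ, without overlap, and most of each sum was Spry2.

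Spred1 was lower in miR-431 cells, and Spred2 did not pass the test. Spred1, whose loss in people causes Legius syndrome, had 2.61, 3.11, 3.60 and 2.17 FPKM with miR-431 (libraries 5 to 8), against 4.10, 3.76, 3.78 and 4.04 FPKM with miR-LacZ (libraries 1 to 4). All miR-431 values lay below all miR-LacZ values, as 15.1% of tested genes did, and the spread was wider in miR-431 cells. The means were 2.87 ± 0.617 FPKM with miR-431 and 3.92 ± 0.170 FPKM with miR-LacZ (SD, n = 4 each), which is 73.2% of the control level. On the log2(FPKM + 1) scale the fold change was −0.36 ± 0.119 (SE; limma adjusted p = 0.0450; exact permutation p = 0.0286). The call was near the threshold: of the 8 fits on 7 libraries, 7 no longer made it, the exception being that without miR-431 7 (limma adjusted p of the 7 from 0.0681 to 0.114). It was also lost without libraries 5 and 1 (−0.31, limma adjusted p = 0.156), and after subtraction of the neighbours' median, itself −0.12, it was lost at −0.24 (limma adjusted p = 0.237).

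Spred2, which also recruits neurofibromin, had 5.45, 4.18, 7.26 and 6.33 FPKM with miR-431 (libraries 5 to 8), against 4.16, 3.99, 4.31 and 6.49 FPKM with miR-LacZ (libraries 1 to 4). The groups overlapped, with miR-LacZ 4 above all but 1 miR-431 library and miR-431 6 below miR-LacZ 3, and the log2 fold change was 0.25 with an interval of −0.13 to 0.62 (limma adjusted p = 0.299). The ratio of Spred2 to Spred1 was 2.09, 1.35, 2.02 and 2.92 in miR-431 libraries, against 1.02, 1.06, 1.14 and 1.61 in miR-LacZ libraries. Those ratios overlapped only through miR-431 6 and miR-LacZ 4, and the summed level of both genes was 8.68 ± 1.54 FPKM with miR-431 and 8.66 ± 1.27 FPKM with miR-LacZ.

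**Figure D3:**
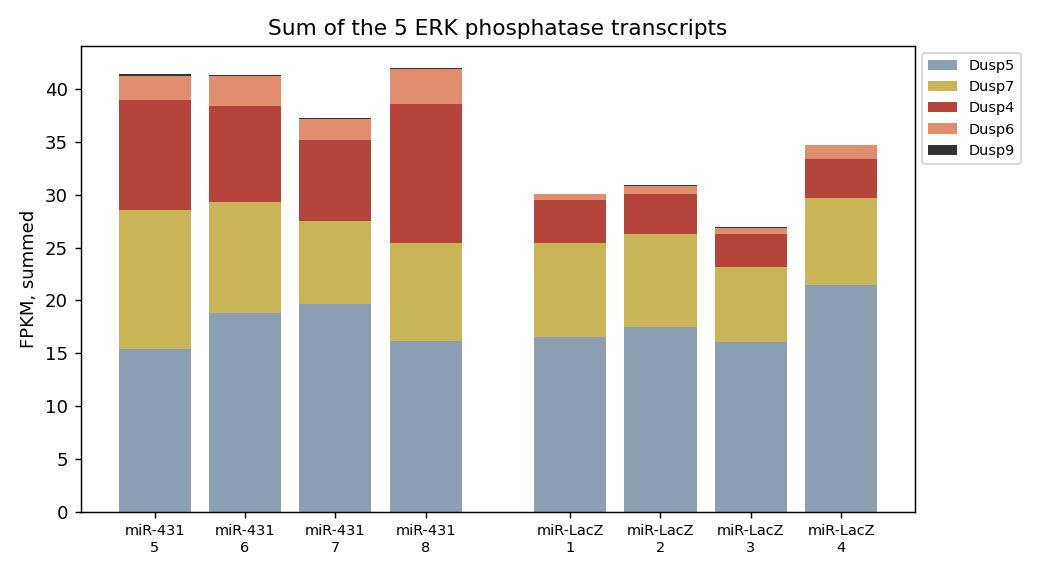
Stacked FPKM of the 5 phosphatase genes (vertical axis, from 0) in each library, miR-431 5 to 8 on the left and miR-LacZ 1 to 4 on the right. The sums are 37.3 to 42.0 in miR-431 and 27.0 to 34.7 in miR-LacZ libraries, and the Dusp4 block is the part that differs most.

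Dusp4 took a larger part of the phosphatase transcripts in each miR-431 library than in any miR-LacZ library. The 5 phosphatases summed to 41.5, 41.3, 37.3 and 42.0 FPKM with miR-431 (libraries 5 to 8), against 30.1, 30.9, 27.0 and 34.7 FPKM with miR-LacZ (libraries 1 to 4). Dusp4 made up 24.8% ± 4.79 of that sum in miR-431 and 11.8% ± 1.15 in miR-LacZ cells, and Dusp5 43.5% ± 7.24 in miR-431 and 58.2% ± 2.99 in miR-LacZ cells (SD, n = 4 each). Dusp6 held 6.38% ± 1.24 in miR-431 and 2.64% ± 0.730 in miR-LacZ cells. Shares add to a fixed whole, so the lower share of Dusp5 follows from the others and its level did not differ beyond the spread. Over all 10 genes the sum was 52.7 ± 1.13 FPKM with miR-431 and 41.5 ± 3.96 FPKM with miR-LacZ, and with Dusp4 left out it was 42.7 ± 1.34 FPKM with miR-431 and 37.9 ± 3.77 FPKM with miR-LacZ, where the groups overlapped.

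The order of levels differed between the groups in its middle. By mean FPKM, miR-431 cells ran Dusp5, Dusp7, Dusp4, Spred2, Spred1, Dusp6, Spry2, Spry1, Spry4 and Dusp9. Of these neighbours, Dusp7 and Dusp4 overlapped, as did Spred1 with Dusp6, Dusp6 with Spry2, and Spry1 with Spry4. In miR-LacZ cells the order was Dusp5, Dusp7, Spred2, Spred1, Dusp4, Spry2, Dusp6, Spry4, Spry1 and Dusp9. There the overlaps were between Spred2 and Spred1, Spred1 and Dusp4, Spry2 and Dusp6, Spry4 and Spry1, and Spry1 and Dusp9.

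Within the miR-431 group, several of the 10 genes ranked the libraries alike. Library 8 was the highest and library 7 the lowest of the 4 for Dusp4, Dusp6, Spry1 and Spry4, and Spred1 had them the other way round, with 7 highest and 8 lowest. The rest of the 10 genes did not share the first order: Dusp5, Spry2 and Spred2 were highest in library 7, and Dusp7 and Dusp9 in library 5. Library 7 also had the most Mir431 and the highest Dab2ip of the group, at 64.2 FPKM, while library 8 had 49.1 FPKM of Dab2ip. Library 5, with the least Mir431 and 47.5 FPKM of Dab2ip, was next to last for Dusp6, Spry1, Spry4 and Spred1. The 4 values in a group give no basis for a correlation, and none was computed. Among miR-LacZ libraries, number 4 was the highest for Dusp5, Dusp6, Spry4 and Spred2.

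Other genes of the pathway were taken from 5 lists with 46 genes. Of the 37 tested, 6 rose, where 15.4% of all tested genes did, and 3 fell, where 13.8% did, counts that set the pathway apart in neither direction. Their median log2 fold change was 0.12, against −0.01 over all tested genes. The list of 7 other family members gave 5 tested genes, of which 0 rose and 1 fell in limma; at an unadjusted p below 0.05, Dusp8 alone was higher (0.43, limma adjusted p = 0.0910). The gene that fell was Dusp10, a phosphatase of the stress kinases p38 and JNK, at 14.7, 25.4, 18.5 and 25.8 FPKM with miR-431 (libraries 5 to 8), against 27.9, 40.03, 36.1 and 64.0 FPKM with miR-LacZ (libraries 1 to 4) (log2 fold change −0.93, SE 0.246, limma adjusted p = 0.0185). Dusp10 does not act mainly on ERK, and its groups did not overlap, as in 15.1% of tested genes in this direction. Dusp1, Dusp8, Dusp16 and Spred3 did not pass, Dusp2 was below the filter, and Spry3 was listed at 0 in every library.

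Among the kinases of the cascade, Map2k1, Braf and Mapk3 rose. The ERK kinase Map2k1 averaged 32.4 ± 1.45 FPKM with miR-431 and 23.8 ± 0.637 FPKM with miR-LacZ (log2 fold change 0.43, limma adjusted p = 0.00197). Braf, a kinase directly below Ras, rose by 0.48 and Mapk3, an ERK gene, by 0.31 (limma adjusted p = 0.0457 and 0.0275). The chromosomal neighbours of Map2k1 stood 0.24 higher in miR-431 cells, and with the neighbours' median removed none of these 3 calls held (limma adjusted p from 0.106 to 0.178). With 1 library fewer, Braf lost its call in 6 of 8 fits (all but without miR-431 7 or miR-LacZ 1) and Mapk3 in 5 (without miR-431 6, 7 or 8 or miR-LacZ 2 or 4). Braf also lost it with no filter (limma adjusted p = 0.0811), and Mapk3 without both libraries 5 and 1 (limma adjusted p = 0.0620).

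Of 13 tested scaffolds and modulators, 2 rose and 1 fell, beside 15.4% and 13.8% of all tested genes. Pea15a, a small protein that holds ERK in the cytoplasm, averaged 81.2 ± 7.29 FPKM with miR-431 and 47.0 ± 2.75 FPKM with miR-LacZ (log2 fold change 0.77, limma adjusted p = 0.000265). Among the ribosomal S6 kinases, which ERK activates, Rps6ka1 fell by 0.57 (limma adjusted p = 0.00292) and Rps6ka2 rose by 0.32 (limma adjusted p = 0.0458). The Rps6ka2 call was lost in 5 of 8 fits with 1 library fewer (without miR-431 5, 6 or 8 or miR-LacZ 3 or 4), without both libraries 5 and 1 (limma adjusted p = 0.0791) and with the neighbours' median removed (limma adjusted p = 0.230). It was also lost with median scaling, with no variance trend and with no filter (limma adjusted p = 0.0536, 0.0509 and 0.0567). Of 5 tested partners of Sprouty and Spred, 0 passed in limma, and at an unadjusted p below 0.05 there was 1 higher and 1 lower. The higher one was Siah2, a ubiquitin ligase of Sprouty (0.19, limma adjusted p = 0.106), and the lower one Nf1, the neurofibromin gene, with a log2 fold change of −0.32 (limma adjusted p = 0.0631).

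Of 7 tested ERK-induced genes outside the feedback set, 0 passed in limma and 1 had an unadjusted p below 0.05. That was the transcription factor gene Egr1, at 4.42 ± 2.12 FPKM with miR-431 and 1.88 ± 0.924 FPKM with miR-LacZ (log2 fold change 0.86, limma adjusted p = 0.0550). Etv5, which is often induced together with Dusp6, stood at 2.11 ± 0.685 FPKM with miR-431 and 1.37 ± 0.520 FPKM with miR-LacZ (0.39, limma adjusted p = 0.139). Fos, Myc, Phlda1, Ier3 and Etv1 had positive fold changes of 0.05 to 0.49, and Etv4, Fosl1, Ccnd1 and Epha2 were below the filter. The list's median was 0.25.

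**Figure D4:**
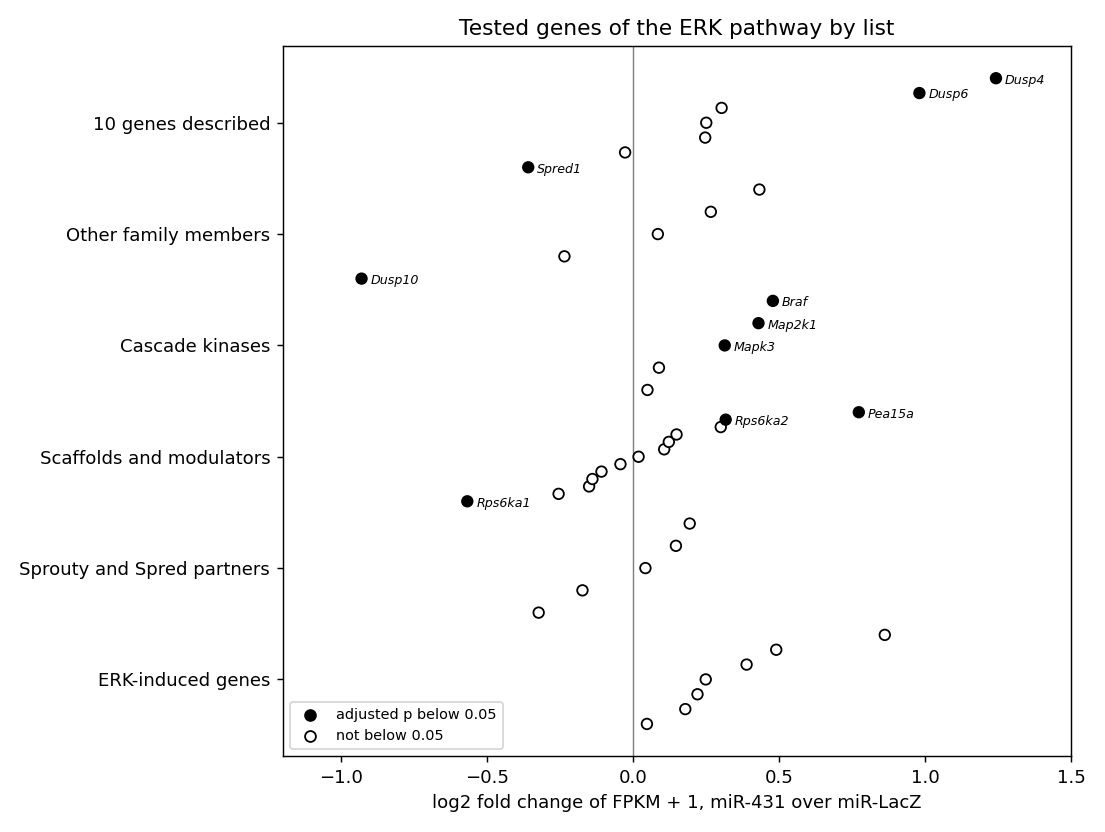
Log2 fold change of FPKM + 1 (horizontal axis), miR-431 over miR-LacZ, of the tested genes in each list, one row per list. Filled points passed an adjusted p of 0.05 and carry their names: Dusp4, Dusp6 and Spred1 in the top row, and in the rows under it Dusp10 at −0.93 farthest to the left and Pea15a at 0.77 the highest named; genes not reported here are left out.

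Beta cell markers were high in all 8 libraries, and of the markers of other cell types only Krt7 was above a few FPKM. All 7 beta cell and neuroendocrine markers were tested, and their summed level was 14760 to 27747 FPKM with miR-431 and 20670 to 36898 FPKM with miR-LacZ, most of it Ins2. Of these 7, Ins1, Pdx1 and Nkx6-1 fell, where 13.8% of all tested genes did, and Chgb rose, where 15.4% did. Ins1 averaged 389 ± 126 FPKM with miR-431 and 3332 ± 1405 FPKM with miR-LacZ (log2 fold change −3.07, limma adjusted p = 0.000148). The log2 fold change of Chgb was 1.18 (limma adjusted p = 0.0132). Of 19 markers of acinar, duct, fibroblast, endothelial and leukocyte cells, 14 were below the filter. The summed level of the 4 acinar markers was 0.0838 to 0.332 FPKM with miR-431 and 1.09 to 3.04 FPKM with miR-LacZ, that of the 4 fibroblast markers 0.691 to 1.05 FPKM with miR-431 and 1.91 to 3.20 FPKM with miR-LacZ, and that of the 4 endothelial markers 1.40 to 2.86 FPKM with miR-431 and 0.564 to 0.763 FPKM with miR-LacZ. The differences of those sums lay mainly in Cela1, Pdgfra and Plvap, while Amy2b was at 0 throughout. The rest of these lists, Cpa1, Prss2, Col1a1, Col1a2, Dcn, Pecam1, Cdh5 and Kdr, were below 1 FPKM in every library. The duct sum, nearly all Krt7, and the leukocyte sum overlapped between the groups. The part of these differences in the levels of the 10 genes was not tested.

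**Figure D5:**
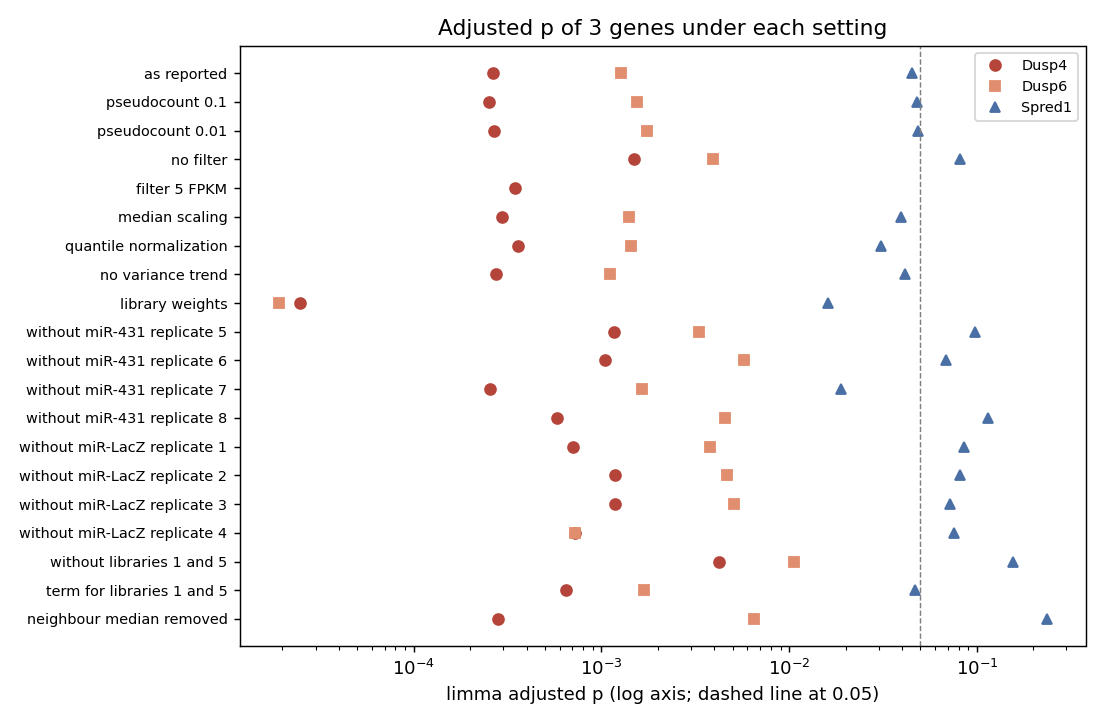
Limma adjusted p (horizontal log axis, dashed line at 0.05) of Dusp4, Dusp6 and Spred1 as reported and under each other setting. Dusp4 and Dusp6 stay left of the line in every fit that tests them, and Spred1 lies on both sides of it.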

How the data were processed

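The authors deposited 1 table of FPKM values; its header names no unit, and FPKM is taken from Cufflinks in the submitters' processing notes. These notes list CASAVA 1.8.2, cutadapt, TopHat2 2.0.11, Cufflinks 2.1.1 and the build mm9, with no role or order. Per the labels' protocols, libraries were made with an Illumina TruSeq RNA kit and read as pairs of 51 bases; strand is not stated. The upper quartile was 14.5 to 14.7 FPKM in all 8 libraries; whether values were scaled to it is not given in the sources used here.

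Log2(FPKM + 1) of the 11807 genes that reached 1 FPKM in 4 or more libraries was fitted with limma 3.58.1 (R 4.3.3, variance trend, no covariate), with p-values adjusted over all of them; the fit was tested on simulated data. Single levels were compared by exact permutation over libraries. The genes, lists and tests were chosen with earlier results of these data known. All 10 genes are named, and of the other lists every called gene up to 4 per list by size; genes beside these were named after their values were seen. Some genes of the kinase list are in the counts over all lists but are not reported here. For the neighbour setting, the running median of gene-centred values of 31 tested neighbours was subtracted. Settings tried are given in the closing section. At most 0.0423% of values were identical in a pair of libraries. Sequences are from RefSeq (GRCm38.p6) and GENCODE M21, whose build differs from mm9. Tables and plots were made in Python 3.11.15 (pandas 2.3.3; matplotlib 3.10.9).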

Additional observations from a re-analysis of the deposited data

Results flagged for a closer look

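Spred2 in miR-LacZ 4, at 6.49 FPKM, lay far from the other 3 miR-LacZ libraries, which held 3.99 to 4.31 FPKM. It was the only such sample among the 20 groups of 4 libraries checked over the 10 genes, and chance flags about 1 in 20. Without miR-LacZ 4 the log2 fold change of Spred2 was 0.38 (limma adjusted p = 0.0860).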

How the results depend on the processing

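Over all genes, 3454 were called, and 2480 to 3350 with 1 library left out; library weights gave 5845. Dusp4 and Dusp6 rose in every fit that tested them, with log2 fold changes of 1.12 to 1.45 and 0.85 to 1.69. Of the 10 genes, 2 were called up, also with any 1 library left out, against 4 without a filter, where Spry1 and Spry4 were added, and 1 at a filter of 5 FPKM, which leaves out Dusp6, Spry2 and Spred1. The 1 call down, Spred1, went to 0 without a filter, at 5 FPKM, without libraries 5 and 1 and with the neighbours' median removed, and 0 to 1 held with 1 library left out. Dusp5 had no call, and its sign turned with library weights (0.018), with the neighbours' median removed (0.020) and among fits with 1 library fewer (−0.084 to 0.058). Of other pathway genes 9 were called, 21 with library weights, 5 with the neighbours' median removed, and 5 to 9 with 1 library left out (5 without miR-431 6 and 5 without miR-431 8). Differences of Dusp9, Spry1 and Spry4 grow with a smaller pseudocount by its construction, to 1.05, 1.98 and 1.68 at 0.01. Pseudocounts of 0.1 and 0.01, median scaling, quantile normalization, no variance trend and a term for libraries 5 and 1 each left 2 of the 10 genes called up and 1 down, with 3428 to 4298 genes called over all and 8 to 10 other pathway genes; both highest counts came with that term. The other changes have causes that were not tested. No paired analysis was possible because the groups share no replicate numbers. Depth is unknown, which limits Dusp9, Spry1 and Spry4 most.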

Other observations

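Of the listed genes below the filter, Gab1, an adaptor that links growth factor receptors to the ERK pathway, stood at 0.327 ± 0.0277 FPKM with miR-431 and 0.0248 ± 0.0209 FPKM with miR-LacZ, and Dusp2, a nuclear phosphatase induced in immune cells, at 0.172 ± 0.0463 FPKM with miR-431 and 0.398 ± 0.0713 FPKM with miR-LacZ (SD, n = 4 each). The groups of both genes were apart. Those of Cav1, a partner of Sprouty and Spred also below the filter, were apart with miR-431 higher, but near 0. Cav1 had 0.0129, 0.0315, 0.0122 and 0.0226 FPKM with miR-431 (libraries 5 to 8). With miR-LacZ (libraries 1 to 4) it had 0, 0.0103, 0 and 0 FPKM. With the depth unknown, the order of those values cannot be relied on. Of 3095 genes below the filter but above 0 in every library, 13.9% were apart with miR-431 higher. Gab1, at 0 in miR-LacZ 4, and Cav1, at 0 in miR-LacZ 1, 3 and 4, are not among those 3095. No such share was computed for miR-431 lower. All of these genes were named after their values were seen.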
